A study of Mus musculus with 40 samples.

Results

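SMRT and NCoR are paralogous corepressors. Neither binds DNA by itself: nuclear receptors and other transcription factors bring them to chromatin, where they hold HDAC3, an enzyme that removes acetyl groups from histones, and lower transcription of nearby genes. In liver both have been tied to the control of lipid and glucose metabolism. The question was which genes were occupied by NCoR without SMRT, and which by both, in fed control liver.

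Chromatin immunoprecipitation followed by sequencing (ChIP-seq) had been done in the study on whole livers of male C57BL/6 mice fed ad libitum, with custom polyclonal antibodies against either paralogue. The mice were Bcl6 fl/fl, so that Bcl6 was flanked by loxP sites but not deleted, and were labelled wild type. No age was given for them in the sources used here. The 2 peak lists each came from 3 libraries pooled, out of 40 samples in 18 groups, and the other 34 samples were not analysed here. Whole liver holds endothelial, stellate and immune cells beside hepatocytes, and fewer cells of a type cannot be told apart from less signal per cell.

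The lists held 35138 NCoR peaks and 10654 SMRT peaks. Each peak went to whichever protein-coding gene had its transcription start site (TSS) closest to the peak centre, and an NCoR peak was said to carry SMRT where a SMRT centre lay within 200 bp. Among 21938 protein-coding genes, 10768 (49.1%) had at least 1 NCoR peak, 5174 (23.6%) had at least 1 SMRT peak and 5057 (23.1%) had at least 1 NCoR peak with SMRT. Genes with 5 or more NCoR peaks, called NCoR-rich here, numbered 2306 (10.5% of all genes). Of these, 208 (9.02%, or 0.948% of all genes) had no SMRT peak and are called SMRT-free. Another 494 (21.4%, or 2.25% of all genes) had SMRT at 50% or more of their NCoR peaks and are called SMRT-coincident. The remaining 1604 lay between these classes. The lists gave positions only, with no height, score or depth and no value per animal. A peak missing from the SMRT list was therefore not called there, which does not show that SMRT was absent. Intervals in the text are 95% intervals for counting error only, and peaks of 1 gene are not independent of each other.

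The classes are shown first by the sequences of some of their peaks. A larger share of the NCoR peaks of SMRT-free genes lay at promoters. The windows below are the central 200 bp of such promoter peaks at 3 genes, shown for their matches to a GC box, the letters of SP and Krüppel-like factors. Plxnd1 encodes a semaphorin receptor, Spag9 a scaffold of JNK signalling and Nup210 a nuclear pore membrane protein. All sequences are the plus strand of GRCm38 (mm10), with matches to the searched letters in capitals, and they were chosen because they held a match.
Plxnd1 chr6:115995021-115995220: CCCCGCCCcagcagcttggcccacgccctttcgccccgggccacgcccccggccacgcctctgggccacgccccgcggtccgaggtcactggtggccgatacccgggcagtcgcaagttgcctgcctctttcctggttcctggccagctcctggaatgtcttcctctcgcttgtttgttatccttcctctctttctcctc
Spag9 chr11:93995848-93996047: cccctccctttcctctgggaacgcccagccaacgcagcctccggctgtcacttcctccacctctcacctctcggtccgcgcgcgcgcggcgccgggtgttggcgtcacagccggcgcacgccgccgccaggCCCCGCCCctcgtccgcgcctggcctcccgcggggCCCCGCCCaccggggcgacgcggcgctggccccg
Nup210 chr6:91116850-91117049: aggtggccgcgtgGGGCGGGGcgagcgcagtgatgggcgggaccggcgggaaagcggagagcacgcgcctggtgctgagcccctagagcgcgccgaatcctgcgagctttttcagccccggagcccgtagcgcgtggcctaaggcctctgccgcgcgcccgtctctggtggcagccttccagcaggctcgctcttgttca

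NCoR peaks lay mostly in introns and between genes in both classes (51.6% and 36.6% at SMRT-free genes, 47.6% and 44.8% at SMRT-coincident genes). Introns and exons are those of any protein-coding gene, which need not be the gene with the nearest TSS. The windows below, from NCoR peaks with SMRT at SMRT-coincident genes, were chosen for matches to the letters of liver transcription factors: FOX (forkhead factors such as FOXA2), HNF6/CUX2 and C/EBP. A1cf, a cofactor of apolipoprotein B mRNA editing, and Cemip2, a transmembrane protein, held all 3 kinds in 1 intronic window. Crot and Decr1 serve fatty acid oxidation and Fbp1 gluconeogenesis. Their windows lay -37388, 7866 and -39302 bp from the TSS, where minus is upstream, and held HNF6/CUX2 and C/EBP matches.
A1cf chr19:31887283-31887482: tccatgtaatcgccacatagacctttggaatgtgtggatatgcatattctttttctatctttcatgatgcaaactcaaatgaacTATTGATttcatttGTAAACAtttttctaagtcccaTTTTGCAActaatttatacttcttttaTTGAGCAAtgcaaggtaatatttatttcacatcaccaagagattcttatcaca
Cemip2 chr19:21814586-21814785: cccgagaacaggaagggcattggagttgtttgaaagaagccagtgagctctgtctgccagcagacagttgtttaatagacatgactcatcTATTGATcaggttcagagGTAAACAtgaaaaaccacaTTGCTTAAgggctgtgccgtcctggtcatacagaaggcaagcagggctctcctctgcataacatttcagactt
Crot chr5:9034612-9034811: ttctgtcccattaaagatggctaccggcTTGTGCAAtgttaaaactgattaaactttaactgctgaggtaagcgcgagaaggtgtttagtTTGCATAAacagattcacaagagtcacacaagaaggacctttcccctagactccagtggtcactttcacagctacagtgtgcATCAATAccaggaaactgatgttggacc
Decr1 chr4:15937541-15937740: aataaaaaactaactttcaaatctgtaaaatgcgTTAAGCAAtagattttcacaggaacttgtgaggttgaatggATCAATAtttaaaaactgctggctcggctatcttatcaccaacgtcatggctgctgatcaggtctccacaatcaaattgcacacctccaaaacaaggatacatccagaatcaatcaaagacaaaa
Fbp1 chr13:62927484-62927683: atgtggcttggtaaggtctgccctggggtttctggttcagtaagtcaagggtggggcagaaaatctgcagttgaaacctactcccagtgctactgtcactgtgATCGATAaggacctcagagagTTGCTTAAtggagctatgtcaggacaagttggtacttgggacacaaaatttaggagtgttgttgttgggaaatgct

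SMRT lay almost wholly within the set of genes that NCoR occupied. Of the genes with any peak, 5147 had both, 5621 had NCoR and no SMRT (52.2% of genes with NCoR), and 27 had SMRT and no NCoR. The 5 of these 27 that come first by the naming rule, 1810049J17Rik, Arhgef28, Arhgef33, Armh3 and Fbll1, had 1 SMRT peak each. At the level of peaks, 10201 NCoR peaks (29.0%) carried SMRT, with a median distance between the centres of 24 bp, and 453 SMRT peaks had no NCoR partner. SMRT peaks outnumbered NCoR peaks at 52 genes and equalled them at 992.

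The share of NCoR peaks that carried SMRT was higher where a gene had more NCoR peaks. It was 17.6% (16.5 to 18.8) at genes with 1 NCoR peak, 23.8% (22.5 to 25.0) at genes with 2 and 28.4% (27.4 to 29.5) at genes with 3 to 4. It reached 32.3% (31.4 to 33.2) at genes with 5 to 9 and 33.6% (32.6 to 34.7) at genes with 10 or more. The last 2 intervals overlap, and the others do not. Promoter peaks, defined as 1000 bp upstream to 100 bp downstream of a TSS, carried SMRT less often at every step: 9.47% at genes with 1 NCoR peak and 22.9% at genes with 10 or more. Peaks outside promoters ran from 20.5% to 34.1% over the same steps. Genes without any SMRT peak made up 81.7% of genes with 1 NCoR peak, 11.7% of those with 5 to 9 and 1.20% (7 of 582) of those with 10 or more. That fall follows in part from the counting, since a gene with more NCoR peaks has more positions at which a SMRT peak can be listed.

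**Figure D1:**
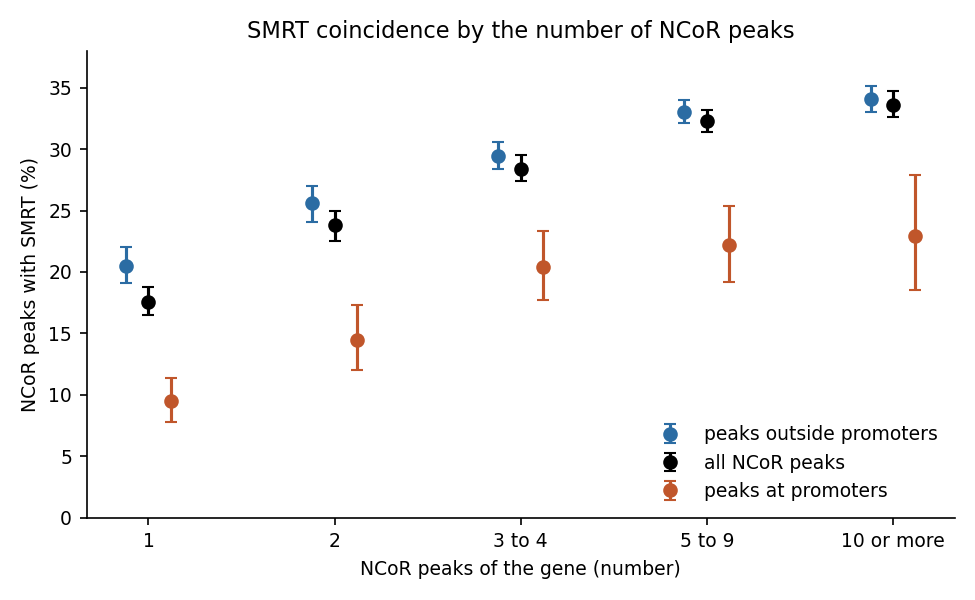
Share of NCoR peaks with a SMRT centre within 200 bp (y axis, %) for genes grouped by their number of NCoR peaks (x axis), for all peaks (black), peaks outside promoters (blue) and promoter peaks (orange); bars are exact 95% intervals. All peaks rise from 17.6% to 33.6%, and promoter peaks lie below the others in each group.

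SMRT-free genes held 1261 NCoR peaks (3.59% of all) and SMRT-coincident genes 3680 (10.5%). The coincident class also held 2244 SMRT peaks, 21.1% of the SMRT list. SMRT-free genes had a median of 5 NCoR peaks and at most 14, against a median of 6 and at most 26. Near the limits of the classes, 106 genes had 5 NCoR peaks and no SMRT, and 243 had 4 NCoR peaks and no SMRT. At the other limit, 148 coincident genes stood at exactly 50%, and 527 NCoR-rich genes were 1 coincident peak short of it. A further 430 NCoR-rich genes had a single SMRT peak. No SMRT-free gene had a SMRT partner that the nearest-TSS rule had given to a neighbouring gene.

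The SMRT-free gene with the most NCoR peaks was Ptprj (chr2:90429754-90580647, minus strand), a receptor-type tyrosine phosphatase. It had 14 NCoR peaks, of which 13 were intronic and 1 lay at a promoter. B3gnt2, an enzyme that extends poly-N-acetyllactosamine chains, had 12, with 11 in introns and 1 in an exon of any protein-coding gene. Several of the 12 lay upstream of the 5'-most TSS of B3gnt2, as far as -52.4 kb, and so outside its own gene body. Maml3, a coactivator of Notch signalling, had 12, with 11 in introns. Man2a1, a Golgi mannosidase of N-glycan processing, had 12, with 7 in introns. No SMRT peak was assigned to any of these genes.

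Trio, a guanine nucleotide exchange factor, had 11 NCoR peaks. Jmjd1c, a protein with a JmjC histone demethylase domain, and Prdm10, a zinc finger factor, had 10 each. The next 5 had 9 each: 1700001O22Rik, D17Wsu92e, Dab2ip, Lhfpl2 and Mettl8. Of these 12 genes, 7 had 1 NCoR peak at a promoter and 5 had none.

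The SMRT-coincident gene with the most NCoR peaks was Gadd45g (chr13:51846678-51848468, plus strand), a stress-induced gene of the growth arrest and DNA damage family. SMRT lay at 13 of its 26 NCoR peaks, and 25 of the 26 were intergenic. Foxo1 (chr3:52268336-52353221, plus strand), the insulin-regulated activator of gluconeogenic genes, had SMRT at 12 of 23, and Hes1, a Notch target and repressor, also at 12 of 23. Foxa2, a pioneer factor of hepatocytes, had SMRT at 11 of 22. Vegfa, an angiogenic growth factor, had SMRT at 10 of 20. These counts stand at or just above the limit of 50% that defined the class.

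Ppara (chr15:85734983-85802819, plus strand), the receptor that drives fatty acid oxidation in fasting, had 18 NCoR peaks and SMRT at 11 of them. Klf4, a Krüppel-like factor, had SMRT at 11 of 18 as well. Rbm47, an RNA-binding protein, had 11 of 19, and Ppp1r3b, a subunit that targets protein phosphatase to glycogen, had 10 of 19. Cadm1 and Gm9747 had 10 of 19 each and Rapgef2 10 of 18.

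**Figure D2:**
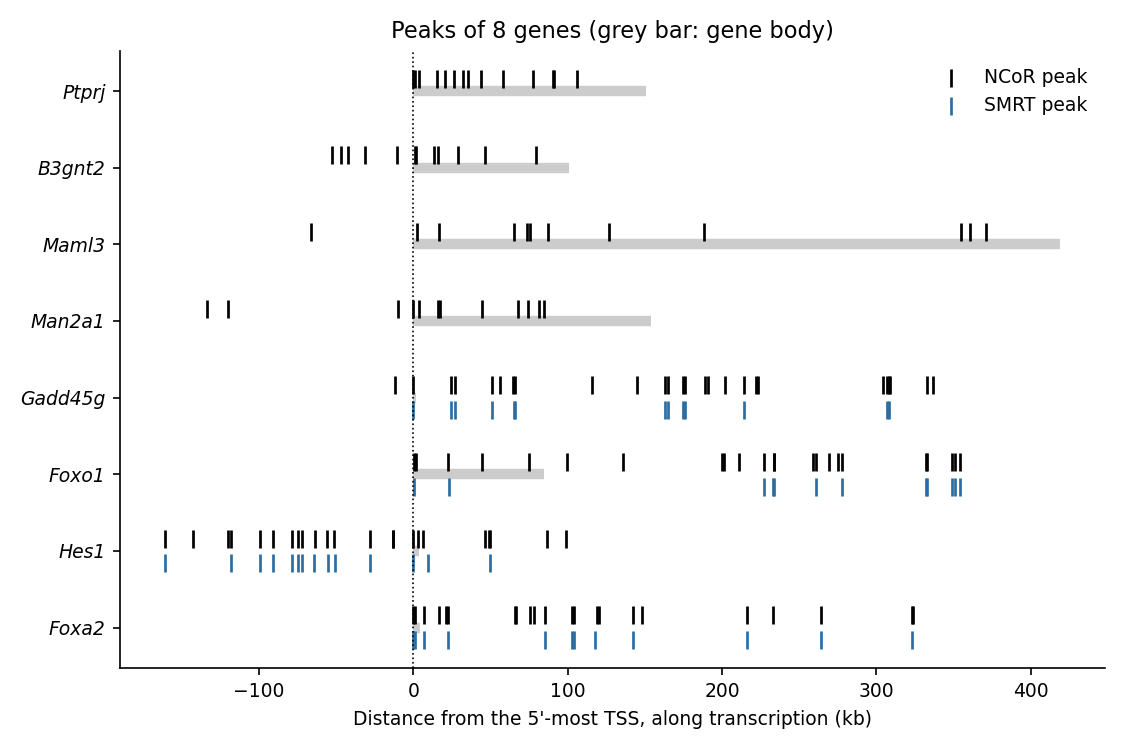
Positions of NCoR peaks (black) and SMRT peaks (blue) of 8 genes, by distance from the 5'-most TSS in the direction of transcription (x axis, kb); grey bars are gene bodies. The 4 upper genes, Ptprj to Man2a1, carry no SMRT mark, and at the 4 lower genes SMRT marks stand below 11 to 13 of the NCoR marks.

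SMRT at every NCoR peak was found at 6 NCoR-rich genes. Mgll, which encodes monoacylglycerol lipase, and Fgd2, an exchange factor for CDC42, had SMRT at 8 of 8. Slc25a51, the mitochondrial NAD carrier, had 6 of 6. Cfhr2, a complement factor H-related gene, Gjb2, a gap junction protein of hepatocytes, and Pla2g6, a calcium-independent phospholipase, had 5 of 5 each.

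The genes with the most SMRT peaks fell between the classes, because they had still more NCoR peaks. Pik3r1, the regulatory subunit of phosphoinositide 3-kinase, had 46 NCoR peaks and 23 SMRT peaks, both the highest of any gene. Tbl1xr1, itself a subunit of the corepressor complex, had 38 NCoR and 16 SMRT peaks, and Zmiz1 had 33 and 16. Irs2, an insulin receptor substrate, had 31 and 15, and Myc had 44 and 15. Bcl6 had 20 NCoR peaks, of which 7 carried SMRT. Ncor1, the gene of NCoR itself, had 4 NCoR peaks and no SMRT peak.

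**Figure D3:**
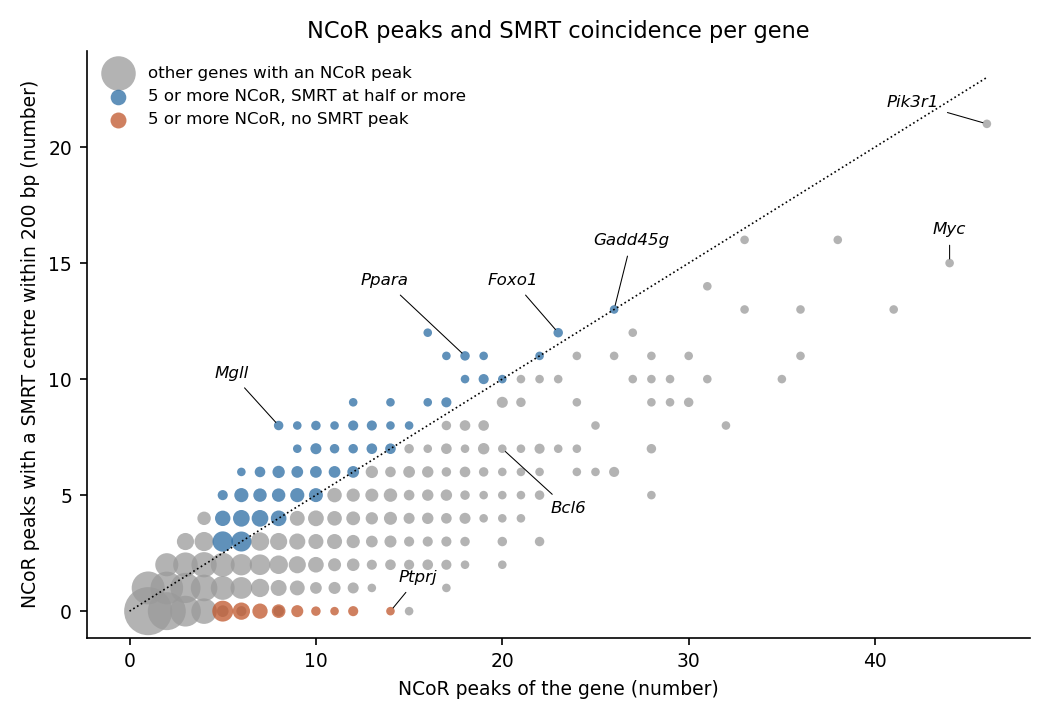
NCoR peaks of each gene (x axis) against the number of them with SMRT (y axis); each point is a pair of counts, its size grows with the number of genes that share it, and the dotted line marks 50%. SMRT-free genes (orange) reach 14 NCoR peaks at Ptprj, SMRT-coincident genes (blue) reach 26 at Gadd45g, and Pik3r1 stands at 46.

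The classes differed in where their NCoR peaks lay, which the rule did not use. Promoter peaks made up 8.56% (108 of 1261) of NCoR peaks at SMRT-free genes and 4.95% (182 of 3680) at SMRT-coincident genes, a difference of 3.62 percentage points (Newcombe interval 2.01 to 5.42). Across all NCoR peaks the share was 10.4%. An NCoR peak at a promoter was present at 48.6% of SMRT-free genes and 33.0% of coincident genes, a difference of 15.6 points (7.62 to 23.4). Promoters rich in CpG were found at 64.9% against 56.9% of genes. That difference of 8.02 points (0.0590 to 15.6) came close to 0, and its interval took in 0 when centres were matched within 100 bp (-0.490 to 15.2) or 400 bp (-0.291 to 15.2).

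NCoR peaks of SMRT-free genes were also less crowded. Another NCoR peak lay within 10 kb of 66.5% of them, against 75.8% at coincident genes, a difference of -9.28 points (-12.3 to -6.37). Within 50 kb the difference was 0.212 points (-1.25 to 1.49). Peaks over 100 kb from the TSS made up 8.96% at SMRT-free genes and 19.0% at coincident genes, and intergenic peaks 36.6% and 44.8%. The median stretch over which a gene held the nearest TSS was 133 kb for SMRT-free and 128 kb for coincident genes. Its upper quartile was 214 kb and 281 kb, so the wider stretches were longer at coincident genes. Whether this bears on the share of far peaks was not tested. Among genes with 5 to 9 NCoR peaks only, where the numbers of peaks were more alike, the promoter difference was 3.16 points (1.40 to 5.10) and the crowding difference -9.18 points (-12.4 to -6.04).

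The same comparison was made at genes that held both kinds of NCoR peak, first with their peaks pooled. At 4103 such genes, 7.82% of the NCoR peaks without SMRT lay at promoters against 5.05% of those with SMRT, a difference of 2.76 points (2.13 to 3.38). That interval leaves the pairing by gene out of account. Taken within each gene, with genes weighted alike, the difference was 4.68 points (3.70 to 5.66). The promoter share was higher for the peaks without SMRT at 1052 genes, lower at 413 and equal at 2638. By median distance, the peaks without SMRT were nearer the TSS at 2280 genes and the peaks with SMRT at 1823.

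The letters in capitals above were counted over all NCoR peaks of the classes. Of 14 motifs searched on either strand in the central 200 bp, 3 were less frequent in NCoR peaks of SMRT-free genes and 1 was more frequent, with intervals widened for the 14 comparisons. The windows also differed in base composition. Their median GC was 49.0% (quartiles 44.0 to 54.5) at SMRT-free genes and 47.5% (42.5 to 52.5) at coincident genes. Whether this bears on the motif differences was not tested. C/EBP (TTNNGCAA) matched 15.5% of peaks at SMRT-free genes and 22.0% at coincident genes, a difference of -6.55 points (-9.97 to -2.82), with 19.1% over all NCoR peaks. FOX (TGTTTAC) matched 5.79% and 9.10% (-3.31 points, -5.52 to -0.740), with 7.74% over all. HNF6/CUX2 (TATTGAT or TATCGAT) matched 5.47% and 8.72% (-3.25 points, -5.40 to -0.731), with 6.89% over all. SP/KLF (GGGCGGGG) went the other way, with 4.12% and 1.96% (2.17 points, 0.608 to 4.21) and 3.62% over all. In windows of 100 bp the intervals of FOX (-2.00 points, -3.69 to 0.0800) and HNF6/CUX2 (-1.76, -3.51 to 0.373) took in 0. Among genes with 8 or more NCoR peaks, of which 30 were SMRT-free and 167 coincident, no motif had an interval that left out 0. The differences there were -5.48 points (-11.7 to 2.53) for C/EBP, -4.62 (-7.89 to 0.867) for HNF6/CUX2, -2.43 (-6.06 to 3.45) for FOX and 1.14 (-1.04 to 5.87) for SP/KLF.

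The intervals of the other 10 motifs took in 0. They were the HNF4 half-site (CAAAGTCCA), ERR (TCAAGGTCA), STAT/BCL6 (TTCNNNGAA), RORE (AGTAGGTCA), ETS (CCGGAAGT), NRF1 (GCATGCGC), YY1 (AAGATGGCG), CREB (TGACGTCA), DR1 and CTCF. A DR1 match can hold the letters of the HNF4 half-site. For the HNF4 half-site the shares were 2.30% and 2.31% (difference -0.0100 points, -1.28 to 1.69). STAT/BCL6, the letters of the factor whose gene was floxed in these mice, matched 5.79% and 7.93% (-2.15 points, -4.30 to 0.387). The interval left out 0 when promoter peaks were removed and the classes were drawn again from the rest.

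The SP/KLF letters followed promoters. They were found in 25.0% of promoter peaks of SMRT-free genes and 15.4% of promoter peaks of coincident genes, against 2.17% and 1.26% outside promoters. With promoter peaks left out and the classes drawn again from the rest, 165 genes were SMRT-free and 460 coincident. Between these redrawn classes no motif was more frequent at SMRT-free genes. Their FOX difference of -2.89 points (-5.34 to 0.0646) took in 0. Their STAT/BCL6 difference was -2.96 points (-5.17 to -0.240), an interval that left out 0. In the classes as first drawn, peaks outside promoters matched FOX at 6.07% and 9.23%. STAT/BCL6 matched 5.72% and 7.98% of them, and no interval was computed for either difference. Within the coincident genes, peaks with SMRT and peaks without it differed in the same letters: C/EBP matched 24.5% and 18.4%, HNF6/CUX2 10.7% and 5.74%, and FOX 10.7% and 6.76%. The 4103 genes with both kinds of peak were compared with their peaks pooled, and no motif value was paired by gene. C/EBP differed by -6.83 points (-8.45 to -5.22), peaks without SMRT minus peaks with it, HNF6/CUX2 by -4.84 (-5.96 to -3.77) and FOX by -2.71 (-3.84 to -1.62). The STAT/BCL6 difference of -0.403 points (-1.45 to 0.612) took in 0. Higher in the peaks without SMRT were SP/KLF by 1.42 points (0.828 to 1.98), ETS by 0.260 (0.0116 to 0.486) and YY1 by 0.120 (0.00855 to 0.236).

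**Figure D4:**
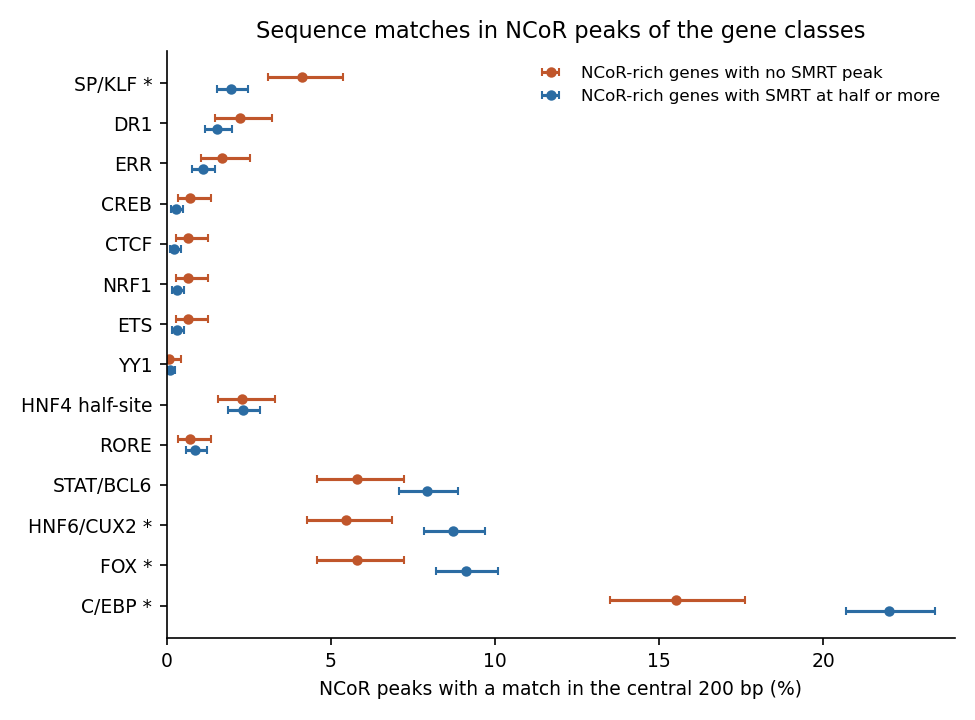
Share of NCoR peaks with a match in the central 200 bp (x axis, %) for 14 motifs at SMRT-free genes (orange) and SMRT-coincident genes (blue); bars are exact 95% intervals, and an asterisk marks a difference whose widened interval leaves out 0. C/EBP, FOX and HNF6/CUX2 are lower at SMRT-free genes (15.5% against 22.0% for C/EBP), and SP/KLF is higher.

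Genes of liver metabolism were set beside the 29.0% (28.6 to 29.5) of NCoR peaks that carried SMRT over all genes. No p-value is given for a list, and members outside the naming rule are named where they fell in a class. In fatty acid oxidation, 30 of 31 genes had an NCoR peak, and SMRT lay at 62 of their 121 NCoR peaks (51.2%, 42.0 to 60.4). None of the 10 NCoR-rich members was SMRT-free and 7 were SMRT-coincident, against 9.02% and 21.4% of all NCoR-rich genes. With so few genes, a count of none SMRT-free lies near that share. Decr1, a dienoyl-CoA reductase, had SMRT at 5 of 6 NCoR peaks, Eci2, an enoyl-CoA isomerase, at 5 of 8 and Crot, the peroxisomal carnitine octanoyltransferase, at 5 of 9. Cpt1a, the entry step of mitochondrial oxidation, and Hadh, a hydroxyacyl-CoA dehydrogenase, had 4 of 6 each. Bdh1, a ketone body enzyme, had SMRT at 2 of 12 and Acaa2 at 4 of 11.

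In glucose metabolism, SMRT lay at 63 of 149 NCoR peaks (42.3%, 34.2 to 50.6). Of 13 NCoR-rich genes, 8 were coincident and none SMRT-free, against 21.4% and 9.02% of all NCoR-rich genes. Here too the count of none lies near the share over all. G6pc, which releases free glucose, and Pdk4, which restrains pyruvate oxidation, had 6 of 8 and 6 of 7. Pck1 and Fbp1, enzymes of gluconeogenesis, had 3 of 5 and 4 of 6. Ppargc1a, a coactivator of gluconeogenic genes, had SMRT at 4 of 18 and Pfkfb3, a regulator of glycolysis, at 2 of 17. Cytochrome P450 and conjugation enzymes stood at 44.5% (35.4 to 53.9), with Cyp3a11 at 7 of 10 and Por, the P450 reductase, at 6 of 10. Amino acid breakdown and the urea cycle stood at 40.0% (31.2 to 49.3). Bhmt and Aass had 5 of 6 each and Cps1 4 of 8.

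Lipid synthesis genes stood at 38.2% (30.2 to 46.7), with Mlxipl, the carbohydrate-responsive factor ChREBP, at 5 of 6, Elovl5 at 6 of 12 and Elovl6 at 6 of 19. Cholesterol and bile acid genes stood at 29.7% (21.9 to 38.4) and held both classes. Cyp7a1, the rate-limiting enzyme of bile acid synthesis, had SMRT at 5 of 8 and Hmgcs1, an early enzyme of cholesterol synthesis, at 3 of 5. Sqle and Cyp51, later enzymes of cholesterol synthesis, had 5 NCoR peaks each and no SMRT peak. Insulin signalling stood at 36.1% (30.0 to 42.6), and Pik3ca, the catalytic partner of Pik3r1, was SMRT-free with 5 NCoR peaks. With peaks within 100 kb of a TSS only, insulin signalling stood at 32.0% (25.1 to 39.5), which took in the 28.2% over all genes. The genes for which the study had primers stood at 46.1% (38.4 to 54.0). The study picked these genes, so they are not independent evidence.

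Among regulators, nuclear receptors stood at 32.3% (26.8 to 38.1), with Rora at 11 of 30, Nr2f2 at 12 of 27 and Thrb at 3 of 22. Hepatocyte factors stood at 33.5% (26.8 to 40.8), where Onecut1, which encodes HNF6, had 8 of 18, Cebpa 5 of 11 and Cebpb 5 of 16, while Cebpd was SMRT-free with 5 NCoR peaks. Clock genes stood at 34.1% (26.0 to 43.0) and Krüppel-like and Sp factors at 37.8% (30.4 to 45.7), with Klf9 at 7 of 14 and Klf7 SMRT-free with 6. Within 100 kb of a TSS, Krüppel-like and Sp factors stood at 34.3% (25.1 to 44.6), which took in the 28.2% over all genes. Secreted proteins of hepatocytes stood at 34.3% (27.2 to 42.0), but at 26.9% (19.5 to 35.4) with promoter peaks left out, against 30.5% over all genes. Apoa1 had SMRT at 2 of 17. Subunits of the corepressor complex stood at 29.2% (22.4 to 36.7). None of their 9 NCoR-rich genes was in either class, against 9.02% SMRT-free and 21.4% coincident among all NCoR-rich genes.

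Genes of mitochondrial housekeeping stood lower. Complex I subunits stood at 9.76% (4 of 41 peaks, 2.72 to 23.1) and mitochondrial ribosomal proteins at 18.3% (10.1 to 29.3). Ndufb9 with 8 NCoR peaks and Mrpl48 with 6 were SMRT-free. Promoter peaks made up 22.0% and 22.5% of the NCoR peaks of these lists, against 10.4% over all genes. With members lacking a peak counted in, the medians were 1 and 0 NCoR peaks per gene. The share carrying SMRT was 17.6% over all genes with 1 NCoR peak, and no list was compared at like numbers of NCoR peaks. Cytosolic ribosomal proteins, with 19.2% at promoters, stood at 31.3% (22.4 to 41.4), where Rplp1 had 9 of 12 and Rpl14, with 6 NCoR peaks, was SMRT-free. Zinc finger genes with a Zfp symbol stood at 24.8% (20.7 to 29.3). They had 8 SMRT-free and 3 coincident genes among 24 NCoR-rich ones, against 9.02% and 21.4% of all NCoR-rich genes. Zfp608 carried SMRT at 13 of 33. Of the 24 lists, complex I alone had an interval wholly below the share over all genes when all peaks were used. With peaks within 100 kb of a TSS only, Zfp genes (21.7%, 17.5 to 26.5) and mitochondrial ribosomal proteins (16.4%, 8.49 to 27.5) also lay wholly below the 28.2% over all genes. With promoter peaks left out, the share over all genes was 30.5%. Intervals of Zfp genes (28.2%, 23.6 to 33.3) and mitochondrial ribosomal proteins (23.6%, 13.2 to 37.0) took it in, and complex I (9.38%, 1.98 to 25.0) stayed below.

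**Figure D5:**
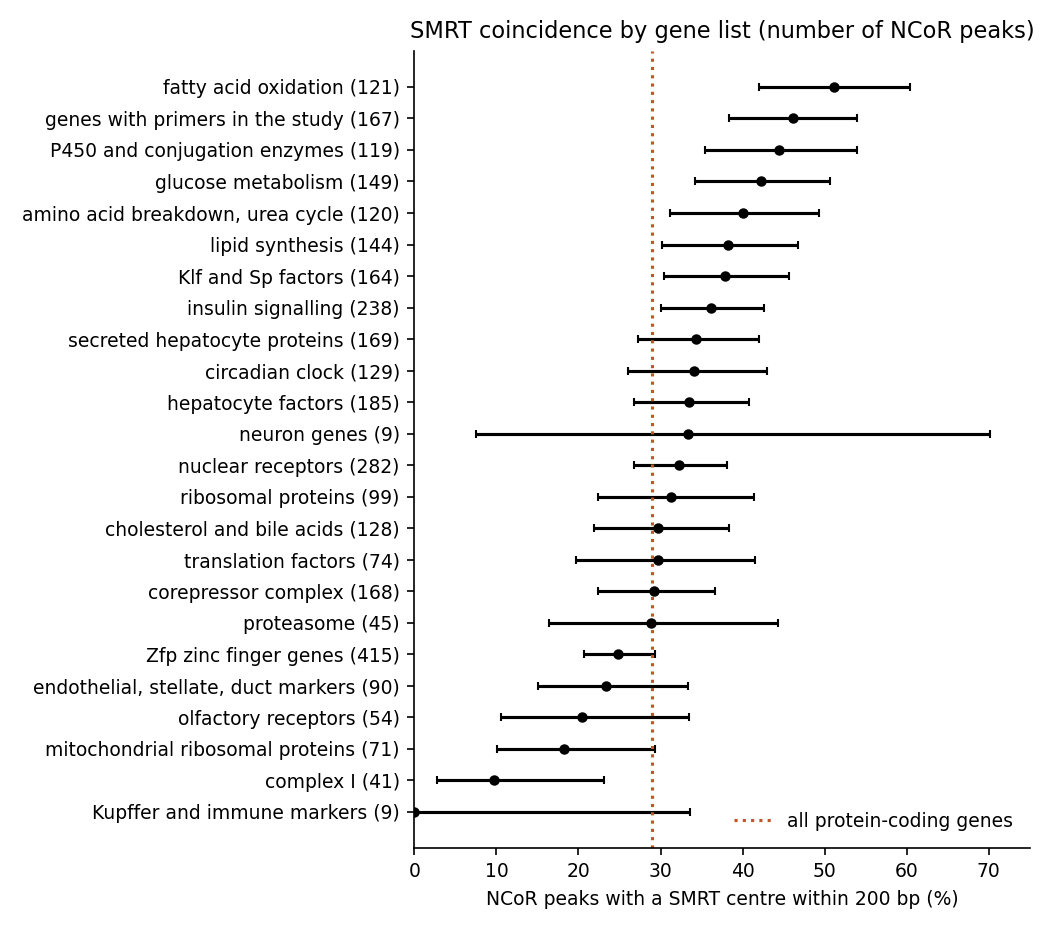
Share of NCoR peaks with SMRT (x axis, %) for 24 gene lists, with the number of NCoR peaks of each in brackets; points are shares, bars exact 95% intervals, and the dotted line is the 29.0% over all protein-coding genes. Fatty acid oxidation stands highest at 51.2%, and complex I stands at 9.76%.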

How the data were processed

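The peak positions came from ChIP-seq of 6 libraries, 3 for SMRT and 3 for NCoR. The authors aligned single-end reads to mm10 with Bowtie, kept uniquely mapped reads, called peaks with HOMER on pooled replicates against input, and kept those that passed fold and false discovery thresholds in DESeq2. The deposited lists give chromosome, start and end; every interval was 212 bp (SMRT) or 228 bp (NCoR) long, end minus start. The sources used here give no depth per sample. HDAC3 peaks were not used.

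All peaks on 21 chromosomes lay within GRCm38.p6. Peaks were assigned with the GENCODE M21 basic annotation to the nearest TSS of any protein-coding transcript, with no distance limit. CpG-rich promoters had at least 50% GC and an observed to expected CpG ratio of at least 0.6 within 500 bp of the TSS. Shares carry Clopper-Pearson intervals (scipy 1.17.1), and differences Newcombe intervals (statsmodels 0.14.6), widened by Bonferroni for 14 motifs. The code was tested on simulated peaks.

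Genes, classes and the 24 lists were chosen with earlier results of these data known. Named genes were the 12 with most NCoR peaks in each class, the 6 with most among genes with SMRT at every NCoR peak, the 5 with most SMRT peaks, the 5 with most SMRT and no NCoR peaks, up to 4 per list by NCoR peaks and by NCoR peaks with SMRT, and fixed genes such as Ncor1 and Bcl6, with ties by symbol. Some genes that the rule would name are not reported here. Of 45 secreted protein symbols 44 matched; the other lists matched in full.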

Additional observations from a re-analysis of the deposited data

How the results depend on the processing

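No paired analysis was possible because the lists pool the replicates and carry no value per library, and for the same reason no replicate could be left out. Class sizes followed the number of NCoR peaks required: with 4, 8 and 10 there were 451, 30 and 7 SMRT-free genes and 818, 167 and 86 coincident genes. The promoter difference took in 0 at 10 NCoR peaks (2.66 points). The CpG difference took in 0 at 8 (14.1) and 10 (13.6) peaks and at centre distances of 100 bp (7.54) and 400 bp (7.65). The crowding difference changed sign at 50 kb (0.212). With 8 NCoR peaks 0 motifs were higher and 0 lower, from fewer genes. Outside promoters, with the classes drawn again, 0 were higher, and in 100 bp windows 1 was lower (C/EBP). The share over all genes was 28.2% within 100 kb of a TSS, 30.5% outside promoters and 28.2% at 100 bp, where genes with 5 to 9 NCoR peaks stood at 31.4%. Motif differences near 0 changed sign: for the HNF4 half-site 0.106 outside promoters, 0.0130 at 100 bp, 0.0282 at 400 bp, 0.0383 at 5 to 9 NCoR peaks and 0.175 in 100 bp windows; for YY1 0.366 at 8 NCoR peaks, 0.0416 outside promoters and 0.0000628 at 400 bp; and for CREB -0.336 at 8 NCoR peaks. Where no construction is named, the cause was not tested. Of 74 recomputed main values, 54 kept their direction, their side of 0 or their size, as did 175 of 194 values for single motifs and lists.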

Other observations

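Immune, neuron and olfactory receptor genes were occupied less often than the 49.1% of all protein-coding genes with NCoR. Of 18 Kupffer cell and immune markers, 4 had an NCoR peak and none had a SMRT peak: Itgam had 4 NCoR peaks, Csf1r and Ptprc 2 each and Adgre1 1. With 0 of 9 NCoR peaks carrying SMRT, the exact interval reached 33.6%, so that a share like that of all genes was not detectable as different at this number. Of 20 neuron genes 5 had an NCoR peak, and of 1091 olfactory receptors 42 did (3.85%). Markers of endothelial, stellate and duct cells were occupied more often, with NCoR at 16 of 22 genes (72.7%) and SMRT at 36.4% of genes, against 23.6% of all genes, and with 23.3% (15.1 to 33.4) of their NCoR peaks carrying SMRT. Sox9, a factor of cholangiocytes, held 36 of the 90 NCoR peaks of this list and 13 of its 21 with SMRT. The pooled share therefore rests largely on Sox9. Lyve1, a receptor of sinusoidal endothelium, had 5 NCoR peaks and was SMRT-free.

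Chromosome X stood apart from the autosomes. SMRT lay at 106 of its 581 NCoR peaks (18.2%, 15.2 to 21.6), while the autosomes ran from 25.2% on chromosome 7 to 32.1% on chromosome 3. Of 27 NCoR-rich genes on X, 3 were SMRT-free and 2 SMRT-coincident, against 9.02% and 21.4% of all NCoR-rich genes. The SMRT-free count lies near the share over all. Without X and Y the classes held 205 and 492 genes, and the promoter difference was 3.57 points (1.96 to 5.38).

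Proteasome subunits (28.9%, 16.4 to 44.3) and translation initiation factors (29.7%, 19.7 to 41.5) stood near the share over all genes. Eif1a had SMRT at 6 of 12 NCoR peaks.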
